A study of Homo sapiens with 9 samples.

Results

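The genes described here are 40 genes of mitosis and of G2/M, the passage from DNA replication into division, listed by name and function and not by any threshold on their values. They were matched by symbol to the Ensembl gene identifiers of the deposited count table. All 40 were found among its 57820 identifiers, and all 40 passed the filter on low counts that left 18618 genes to test. They fall by role into 8 genes of CDK1, its cyclins and its activators, 3 of transcription and chromosome structure, 6 around the mitotic kinases, 5 of the spindle checkpoint, 3 of mitotic exit, 5 of the kinetochore, 5 of the spindle and 5 of cytokinesis.

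Tumours of A375, a human melanoma line with a BRAF mutation, were grown in nude mice, which lack T cells but keep other immune cells and their own stroma. Before injection the cells had been given a stable construct that doxycycline (Dox) switches on. It encodes either wild-type RNF4, which attaches ubiquitin to proteins that carry SUMO, or RNF4 with the change C159A in its RING domain, labelled catalytically inactive (RING mutant). Poly(A) RNA of 9 libraries was sequenced: RNF4 without Dox (columns T1, T4 and T12), RNF4 with Dox (T2, T5 and T13) and RING mutant with Dox (T3, T6 and T14), each library from 2 pooled tumours. The drinking water held Dox from day 3 after injection, and tumours were taken at day 30. The series' design text names a GFP line as its control where the sample titles name RNF4 without Dox, so the titles were followed here. None of the 3 groups received Dox without an RNF4 construct, so Dox and RNF4 cannot be told apart in the first comparison. The animals' age is not in the labels, and whether a construct line was 1 clone is not stated.

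Entry into mitosis is driven by CDK1 bound to cyclin B, which CDC25 phosphatases activate and PLK1 and the aurora kinases support. The checkpoint proteins hold the anaphase-promoting complex until every kinetochore is attached, after which CDC20 and UBE2C lead to the destruction of cyclin B and securin. Transcripts of these genes are kept low in resting and early-cycle cells by the DREAM complex at a CHR promoter element and are raised late in the cycle by MYB, the MuvB core, FOXM1 and NF-Y, the last at CCAAT boxes. Their summed level is therefore widely used as a measure of how many cells are in cycle. In bulk tumour RNA, fewer cycling cells and less of a transcript per cycling cell cannot be told apart.

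Promoter sequences of 7 members are printed as examples, each with the same 2 kinds of element. Among them are members that stood high in T1 and T2 (such as CKS2), low there (MKI67) or neither (PLK1). Whether the elements differ between such members was not tested. The 120 bases before the start are shown, in lower case, with capitals for the letters TTTGAA (the usual core of the CHR) and CCAAT on either strand, so that TTCAAA and ATTGG are the same elements on the other strand. In the MKI67 window a TTTGAA and an ATTGG overlap. Sequences are from RefSeq, build GRCh38.p14.
CKS2 (chr9:89311075-89311194, plus strand): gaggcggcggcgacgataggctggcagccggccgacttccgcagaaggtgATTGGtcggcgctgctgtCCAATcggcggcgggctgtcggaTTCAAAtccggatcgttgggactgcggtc
CKS1B (chr1:154974561-154974680, plus strand): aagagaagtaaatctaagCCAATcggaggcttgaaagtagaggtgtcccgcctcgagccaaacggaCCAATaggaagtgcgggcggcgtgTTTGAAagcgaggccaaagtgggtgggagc
CCNB2 (chr15:59105026-59105145, plus strand): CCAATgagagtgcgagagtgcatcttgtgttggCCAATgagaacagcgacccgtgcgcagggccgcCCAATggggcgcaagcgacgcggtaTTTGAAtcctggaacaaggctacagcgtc
CDC20 (chr1:43358861-43358980, plus strand): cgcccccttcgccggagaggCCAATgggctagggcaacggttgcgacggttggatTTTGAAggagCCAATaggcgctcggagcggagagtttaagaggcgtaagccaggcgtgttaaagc
PLK1 (chr16:23678769-23678888, plus strand): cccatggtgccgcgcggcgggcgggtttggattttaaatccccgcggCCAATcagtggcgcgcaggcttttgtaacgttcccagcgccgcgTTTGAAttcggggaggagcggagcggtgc
KIF11 (chr10:92593010-92593129, plus strand): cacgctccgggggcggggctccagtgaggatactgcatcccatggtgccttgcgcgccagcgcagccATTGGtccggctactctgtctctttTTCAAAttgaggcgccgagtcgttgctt
MKI67 (chr10:128126424-128126543, minus strand): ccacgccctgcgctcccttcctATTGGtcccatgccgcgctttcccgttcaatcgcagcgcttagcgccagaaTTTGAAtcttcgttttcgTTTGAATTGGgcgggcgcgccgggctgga
A TTTGAA began 28 to 30 bases before the start in CKS2, CKS1B, CCNB2, PLK1, KIF11 and MKI67, counting its leftmost base in the direction of the gene, and a CCAAT stood upstream of it in each of these 6. The promoter table held 43 windows of 300 bases (250 before to 50 after a start) for 33 of the members and 35116 windows in all; FOXM1, AURKA, BIRC5, TPX2, BUB3, TTK and UBE2C were not in it. TTTGAA or TTCGAA was found in 65.1% of the members' windows and in 16.4% of all windows. CCAAT was found in 74.4% against 34.6%, and both together in 53.5% against 6.38%. These are letter matches on both strands and no binding was measured.

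Library totals ran from 16416426 to 28934692 counts, and the members had between 134 (CDC25C) and 12017 counts (CKS2) in a library. Counting error was thus small beside the spread between libraries for most members, but less so for those of fewest counts, such as CDC25C. RNF4 had 33.4, 52.0 and 43.2 CPM (counts scaled to a common library total with TMM factors in edgeR) without Dox, 380, 413 and 454 with RNF4 and Dox, and 47.0, 559 and 63.5 in T3, T6 and T14. T3 and T14 thus lay near the level without Dox, and the group is given below as the libraries labelled RING mutant. T1 and T2 stood apart from the rest, with ribosomal protein genes at 24.9% and 15.2% of counts, where no other library exceeded 8.98%. Among 13 melanoma genes, SOX10 (39.0 to 80.9 CPM), SOX9, AXL and PRAME were expressed in every library, whereas the pigment genes TYR, DCT, PMEL and MLANA were at or near 0 in most. Stromal markers varied within groups: the summed CPM of 10 fibroblast genes was 921 to 2427 without Dox, 1174 to 3623 with RNF4 and Dox and 683 to 4114 for RING mutant, and that of 15 muscle genes 18.7 to 49.6, 16.4 to 247 and 26.9 to 888. Reads of the mouse host may be among them, since a human genome build is the only one named. Nothing in the labels says that the tumours of a library came from separate cultures of cells, so p-values measure the spread between these pooled libraries.

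**Figure D1:**
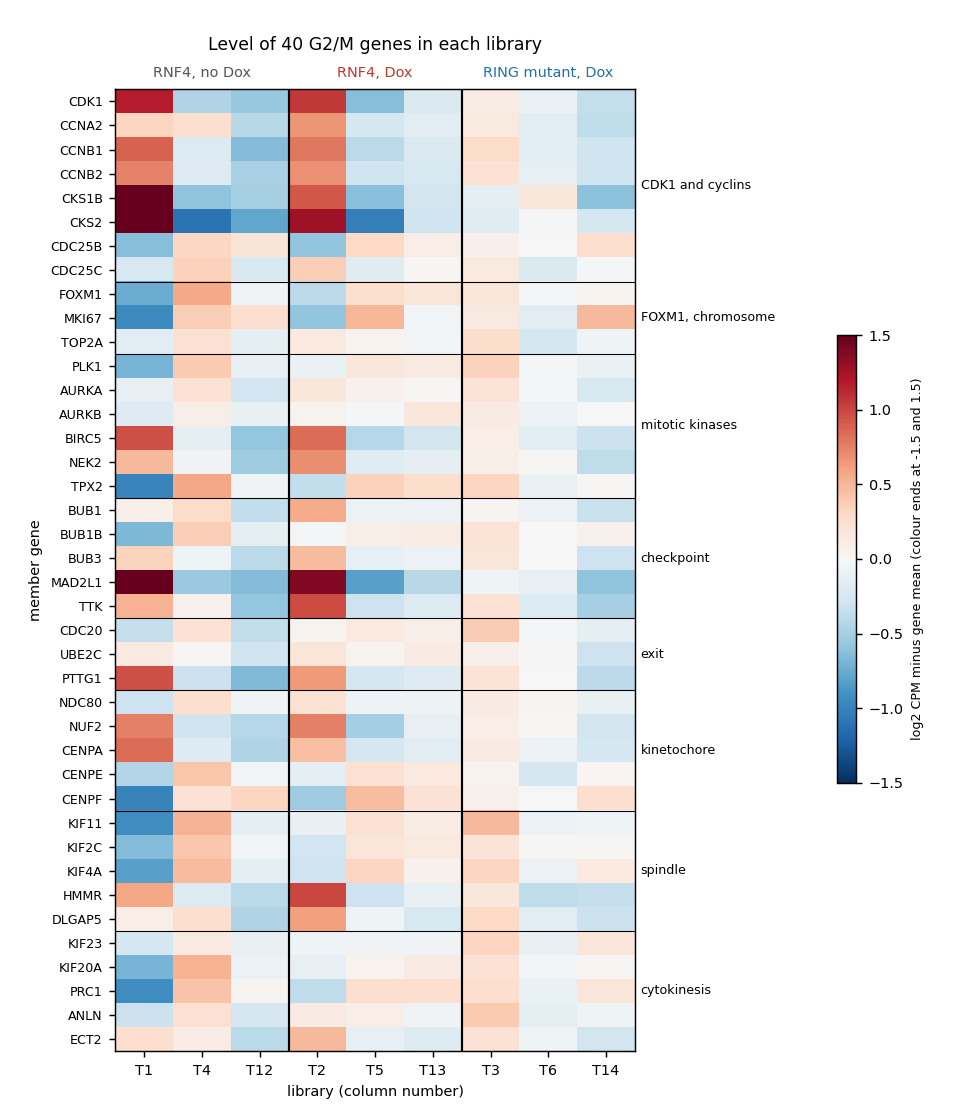
Level of each of the 40 members (rows, by role) in each library (columns, by group), as log2 CPM minus the gene's own mean over the 9 libraries, with colours ending at -1.5 and 1.5. CKS2, CKS1B and MAD2L1 are high in T1 and T2, TPX2, PRC1, MKI67 and CENPF are low in T1, and no group of 3 columns is uniformly high or low.

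No member passed the test between groups. Of 40 members, 0 passed an adjusted p of 0.05 in edgeR's quasi-likelihood test in any of the 3 comparisons or in the test of any difference among the groups, where 0.0% of all 18618 genes passed in each, and the smallest adjusted p of a member in the 3 comparisons was 0.99998, 0.99988 and 0.99996. At an unadjusted p under 0.05 the members counted 0 in each comparison, against 0.596% of all genes for RNF4 with Dox against RNF4 without Dox, 1.35% for RNF4 with Dox against RING mutant, and 1.75% for RING mutant against RNF4 without Dox. DESeq2, a likelihood ratio test and limma with quality weights also called 0 members and gave 0 an unadjusted p under 0.05. Of all 18618 genes, DESeq2 called 3, 1 and 4 in the 3 comparisons. The likelihood ratio test called 1, 3 and 5, and limma 0 in each. An unadjusted p under 0.05 was given to 137, 310 and 383 of all genes by DESeq2. It was given to 131, 300 and 390 by the likelihood ratio test, and to 362, 1371 and 1002 by limma. Members differed between some libraries of the same group, and in T1 and T2 their deviation fell with coding length. Values of a group are given below in the order T1, T4 and T12 without Dox, T2, T5 and T13 with RNF4 and Dox, and T3, T6 and T14 for RING mutant.

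Of CDK1, its cyclins and its activators, the CKS genes had the widest spread. CKS2 (chr9:89311198-89316703, plus strand, GRCh38 with GENCODE release 29), a small subunit that binds cyclin-dependent kinases and aids their contact with substrates, had 822, 71.5 and 89.3 CPM without Dox, 371, 75.3 and 125 with RNF4 and Dox, and 136, 151 and 128 in those labelled RING mutant. Its paralogue CKS1B, which also serves the SCF ligase that removes p27, had 169, 34.4 and 37.2 CPM without Dox, 100.0, 33.9 and 43.3 with RNF4 and Dox, and 47.3, 58.9 and 34.4 in those labelled RING mutant. T1 and T2 were the highest libraries for both genes although they belong to different groups, and the groups overlapped. Changes with RNF4 and Dox against no Dox were -0.78 ± 0.88 for CKS2 and -0.44 ± 0.62 for CKS1B on the log2 scale (± SE here and below), with 95% intervals of -2.75 to 1.19 and -1.83 to 0.96. Without T1 they were 1.27 and 0.74, so the sign of both rested on 1 library. The ratio of CKS2 to CKS1B ran from 2.08 in T4 to 4.88 in T1. CKS1B has 7 named pseudogenes that could share reads with it, which limits what its level says. How the authors' counting treated such reads is not stated.

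CCNB1 and CCNB2, the B-type cyclins that carry CDK1 into mitosis, moved together across libraries. CCNB1 had 410.2, 192 and 141 CPM without Dox, 383, 168 and 190.2 with RNF4 and Dox, and 267, 196 and 180.2 in those labelled RING mutant. CCNB2 had 138, 72.3 and 58.9 CPM without Dox, 133, 67.1 and 69.8 with RNF4 and Dox, and 95.6, 76.1 and 67.0 in those labelled RING mutant. T1 and T2 were again highest for both cyclins, and the ratio of CCNB1 to CCNB2 stayed between 2.39 and 2.97 in the 9 libraries. With RNF4 and Dox against no Dox the differences were -0.0032 ± 0.44 and 0.0061 ± 0.37. CDK1 itself (81.0 to 286 CPM) and CCNA2, the cyclin of S phase and early mitosis (61.3 to 130 CPM), had the same 2 libraries on top. CDC25B, a phosphatase that activates CDK1, was the reverse: T1 (141 CPM) and T2 (146 CPM) lay below the remaining libraries (219 to 273 CPM). CDC25C, another such phosphatase, had the lowest counts of the members, at 9.17 to 13.97 CPM. Of the 8 genes of this role, 3 were above 0 with RNF4 and Dox against no Dox, with a median of -0.017.

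Among the genes of transcription and chromosome structure, TOP2A, the topoisomerase that untangles sister DNA, had 289, 378 and 292 CPM without Dox, 358, 336 and 316 with RNF4 and Dox, and 388, 271 and 309 in those labelled RING mutant. The 3 groups of TOP2A overlapped throughout, and its difference with RNF4 and Dox against no Dox was 0.073 ± 0.23. MKI67, which coats mitotic chromosomes and gives the Ki-67 antigen, had 91.6, 229.6 and 212 CPM without Dox, 118, 249.7 and 173 with RNF4 and Dox, and 194, 159 and 249 in those labelled RING mutant. FOXM1, a transcription factor for late cell-cycle genes, ran from 65.1 CPM in T1 to 163 in T4. T1 and T2 were the 2 lowest libraries for both MKI67 and FOXM1, opposite to the cyclins, and the groups of both overlapped.

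AURKB and AURKA were among the steadiest members. AURKB, the kinase of the chromosomal passenger complex, had 64.6, 78.7 and 68.5 CPM without Dox, 76.7, 72.6 and 83.4 with RNF4 and Dox, and 80.7, 69.4 and 74.1 in those labelled RING mutant. AURKA, the kinase of the spindle poles, had 69.2, 87.3 and 61.5 CPM without Dox, 84.5, 78.7 and 76.0 with RNF4 and Dox, and 86.9, 74.0 and 63.6 in those labelled RING mutant. The highest library of AURKB was 1.29 times the lowest and that of AURKA 1.42 times, and their differences with RNF4 and Dox against no Dox were 0.14 ± 0.17 (95% interval -0.24 to 0.51) and 0.13 ± 0.20. NEK2, a kinase of centrosome separation, had 62.7, 43.4 and 31.1 CPM without Dox, 72.7, 39.6 and 40.7 with RNF4 and Dox, and 47.6, 45.5 and 34.5 in those labelled RING mutant. BIRC5, the survivin subunit of the passenger complex, and NEK2 were highest in T1 and T2, with 80.9 and 73.9 CPM of BIRC5 against 27.6 to 44.4 in the other 7. TPX2, the activator of AURKA on spindle microtubules, was lowest there, with 83.3 and 128 CPM against 154 to 247. PLK1, the polo kinase of mitotic entry, ran from 81.6 CPM in T1 to 174 in T4. Of these 6 genes, 5 were above 0 in the same comparison, with a median of 0.13 and the largest difference in NEK2 (0.16 ± 0.32).

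MAD2L1 (chr4:120055608-120067074, minus strand), the checkpoint protein that holds CDC20 inactive, had the second widest spread of the members. It stood at 472, 88.8 and 83.8 CPM without Dox, at 344, 74.5 and 98.2 with RNF4 and Dox, and at 125, 120.3 and 86.3 in those labelled RING mutant. T1 and T2 were the 2 highest libraries by a wide margin, and the groups overlapped. BUB1B, the checkpoint kinase homologue that forms part of the same inhibitor, had 32.8, 67.8 and 47.7 CPM without Dox, 51.6, 55.6 and 56.6 with RNF4 and Dox, and 60.7, 52.7 and 54.9 in those labelled RING mutant. T4 gave its highest value and T1 its lowest, in the same group. With RNF4 and Dox against no Dox, MAD2L1 differed by -0.32 ± 0.73 and BUB1B by 0.14 ± 0.24. TTK, the kinase that starts checkpoint signalling, had 63.4, 46.1 and 29.4 CPM without Dox, 87.1, 35.5 and 38.3 with RNF4 and Dox, and 51.3, 38.1 and 31.1 in those labelled RING mutant. BUB1, the kinase that recruits the checkpoint to kinetochores, had 63.8, 72.5 and 46.3 CPM without Dox, 88.2, 56.3 and 56.5 with RNF4 and Dox, and 61.7, 56.6 and 47.3 in those labelled RING mutant. T2 was the highest library for TTK, for BUB1 and for BUB3, a binding partner of BUB1 that ran from 186 to 343 CPM. All 5 genes had 0 calls, 4 of them above 0 in this comparison with a median of 0.14.

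CDC20 (chr1:43358955-43363203, plus strand), the activator of the anaphase-promoting complex, had the smallest p of all members with RNF4 and Dox against no Dox. Its values were 170.0, 251 and 168 CPM without Dox, 226, 239 and 231 with RNF4 and Dox, and 282, 214 and 197 in those labelled RING mutant. T5, T2 and T13 lay close together but inside the range of T1, T4 and T12, and T3 was higher than all of them. The difference was 0.24 ± 0.24 (95% interval -0.29 to 0.77, unadjusted p = 0.330, adjusted p = 0.99998 by edgeR). UBE2C, the E2 enzyme of the same complex, had 153, 141 and 113 CPM without Dox, 158, 144 and 151 with RNF4 and Dox, and 146, 140.3 and 112 in those labelled RING mutant, a difference of 0.16 ± 0.20. UBE2C has 5 named pseudogenes. PTTG1, the securin that holds separase inactive, had 239, 98.0 and 77.3 CPM without Dox, 190.4, 103 and 107 with RNF4 and Dox, and 141, 122 and 93.2 in those labelled RING mutant. Its 2 highest libraries were T1 and T2, and PTTG2 and PTTG3P are near copies of it. Of these 3 genes, 2 were above 0.

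Kinetochore genes again went both ways in T1 and T2. CENPF, a large protein of the outer kinetochore, had 109, 252 and 271 CPM without Dox, 149.5, 301 and 252 with RNF4 and Dox, and 227, 219 and 259 in those labelled RING mutant. T1 and T2 were its lowest libraries and the other 7 lay between 219 and 301 CPM, with a difference of 0.15 ± 0.36 between RNF4 with Dox and RNF4 without Dox. NUF2, part of the microtubule-binding NDC80 complex, had 138 CPM in both T1 and T2 against 57.3 to 87.6 in the other 7, and CENPA, the centromeric histone H3 variant, 44.2 and 33.8 against 18.0 to 26.8. NDC80, the partner of NUF2, stayed within 21.96 to 32.54 CPM and CENPE, a kinetochore motor, within 39.3 to 71.3. Although NDC80 and NUF2 are subunits of 1 complex, T1 was lowest for NDC80 (21.96 CPM) but with T2 on top for NUF2. T2 was at or near the top for both. Of these 5 genes, 4 were above 0 with a median of 0.060.

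In the spindle group, HMMR (chr5:163460203-163491945, plus strand), a protein of spindle assembly also known as RHAMM, had 102, 58.9 and 51.3 CPM without Dox, 136, 55.0 and 63.0 with RNF4 and Dox, and 76.7, 52.0 and 53.4 in those labelled RING mutant. T2 was highest and T1 second, and the other 7 lay within 51.3 to 76.7 CPM. HMMR differed by 0.26 ± 0.38 with RNF4 and Dox against no Dox. The motors KIF11 (spindle bipolarity; 49.9 to 136 CPM), KIF2C (microtubule depolymerisation; 52.6 to 109 CPM) and KIF4A (chromosome arms and midzone; 28.7 to 70.0 CPM) were each lowest in T1 and highest in T4. DLGAP5, a spindle stabiliser, ran from 37.6 CPM in T12 to 78.4 in T2. All 5 were above 0 in this comparison, with a median of 0.15 and 0 calls.

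Cytokinesis genes were also above 0 in 5 of 5, with a median of 0.080. ANLN, the anillin scaffold of the contractile ring, had 196, 287 and 206 CPM without Dox, 267, 263 and 236 with RNF4 and Dox, and 321, 224 and 234 in those labelled RING mutant. T3, a library labelled RING mutant, was its highest and T1 its lowest, and the difference with RNF4 and Dox against no Dox was 0.15 ± 0.24. KIF23, the motor subunit of centralspindlin, had 78.9, 104 and 87.4 CPM without Dox, 90.3, 91.5 and 91.5 with RNF4 and Dox, and 119, 87.6 and 108 in those labelled RING mutant. PRC1, the midzone microtubule bundler (59.4 to 153 CPM), and KIF20A, a midzone motor (35.2 to 82.2 CPM), were lowest in T1 and highest in T4. ECT2, which activates RhoA at the division plane, ran from 73.5 CPM in T12 to 136 in T2.

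Per kilobase of the principal transcript in GENCODE release 29, the mean level over the 9 libraries was highest for CKS2 at 357 ± 397 CPM per kb (SD, n = 9), followed by UBE2C at 164 ± 19.4 and CDC20 at 124 ± 21.0. The spread of CKS2 came from T1 and T2, since it had 71.5 to 151 CPM in the other 7. CENPE at 6.27 and CDC25C at 5.14 CPM per kb were lowest. The principal transcripts of MAD2L1, BUB3 and BIRC5 have long untranslated parts, so their level per kilobase depends on whether that form was the one expressed. Exons of CCNA2, CDC25C, FOXM1, PLK1, MAD2L1, NUF2, KIF2C, KIF4A, HMMR, KIF23, KIF20A, PRC1 and ANLN overlap a gene on the other strand, and those of BUB1B, CENPA and PRC1 one on the same strand. The kit keeps strand, but whether the counting used it is not stated, so reads of such partners cannot be told apart. By name, KIF4A also has the copy KIF4B, and CCNB2, MKI67, AURKA, AURKB, NEK2, BUB1, BUB3, MAD2L1, CDC20 and DLGAP5 have pseudogenes. How the counting treated reads shared with such copies is not stated.

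**Figure D2:**
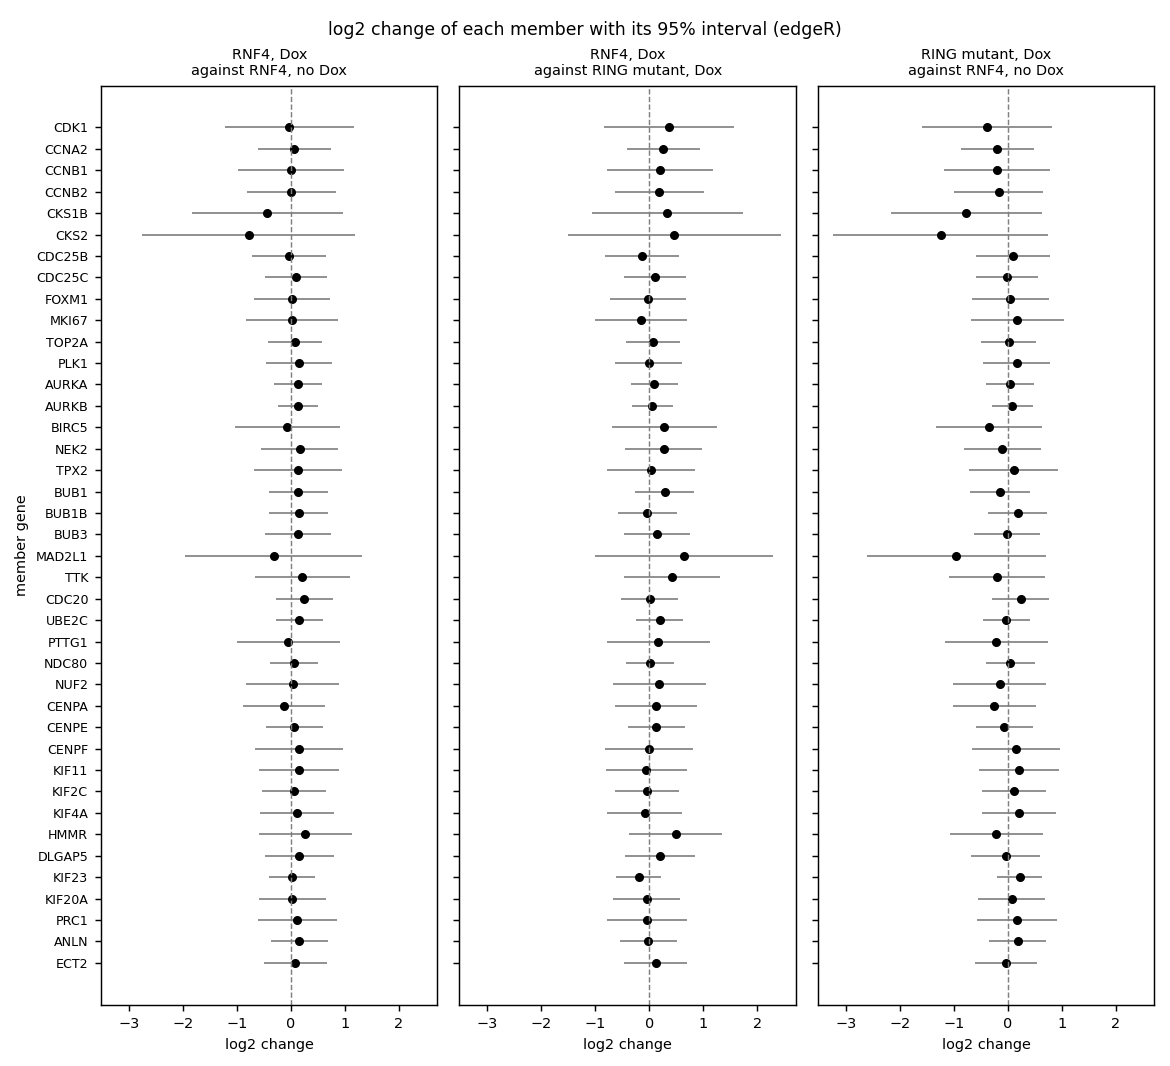
Log2 change of each member (rows, by role) in the 3 comparisons, with points for edgeR's estimate and lines for its 95% interval. Every interval includes 0; the intervals of CKS2, MAD2L1 and CKS1B are the widest and that of AURKB is the narrowest.

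Between RNF4 with Dox and RNF4 without Dox, 31 of 40 members were above 0, with a median log2 change of 0.077, where 44.3% of all 18618 genes were above 0 with a median of -0.026. Standard errors of the members ran from 0.17 to 0.88 with a median of 0.31, so that single differences of this size were not detectable. Groups of 0 members did not overlap, where 0.875% of all genes lay wholly higher and 1.44% wholly lower with Dox. The median rested on single libraries: it was -0.0067 with 19 members above 0 without T12, -0.018 with 20 above 0 without T2, -0.0013 with 19 above 0 without both T1 and T2, and 0.22 with 30 above 0 without T4. The authors' deposited table for this comparison gave 30 of 40 members a fold change above 0 on the log2 scale, from -0.80 to 0.25, with 0.999998 as the smallest adjusted p.

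RNF4 with Dox against the libraries labelled RING mutant compares the wild-type with the mutant construct line, as far as the labels hold for T3 and T14. Ligase activity and any other difference between the lines cannot be told apart in it. RNF4 itself was also lower in T3 (47.0 CPM) and T14 (63.5 CPM) than with RNF4 and Dox (380 to 454 CPM). Of 40 members, 27 were above 0 with a median of 0.11, against 55.8% of all genes and a median of 0.032. HMMR had the smallest p, at 0.48 ± 0.39 (95% interval -0.38 to 1.34, unadjusted p = 0.240). BUB1 at 0.28 ± 0.25, TTK at 0.42 ± 0.40 and UBE2C at 0.19 ± 0.20 followed, and KIF23 lay lower with RNF4 at -0.20 ± 0.19. HMMR and TTK rested on T2: without it HMMR was -0.041 and TTK -0.12. Groups of 0 members did not overlap, against 2.71% of all genes wholly higher and 2.27% wholly lower with RNF4. The median of the members was -0.049 without T2, -0.064 with 17 above 0 without T1 and T2, 0.21 with 36 above 0 without T3, and 0.16 with 37 above 0 without T3 and T14. Offsets for transcript length and GC content in each library gave a median of -0.0058 with 19 above 0. This comparison shares the RNF4 libraries with Dox with the first one, so the 2 are not independent.

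Between the libraries labelled RING mutant and RNF4 without Dox, 19 of 40 members were above 0 with a median of -0.013, against 43.2% and -0.039 for all genes. These groups differ in construct line and in Dox at once, which cannot be told apart. CKS2 at -1.24 ± 0.89, MAD2L1 at -0.96 ± 0.74 and CKS1B at -0.77 ± 0.63 had the smallest p-values (0.193 to 0.248, unadjusted, by edgeR), followed by KIF23 at 0.22 ± 0.19 and CDC20 at 0.23 ± 0.24. Without T1 the first 3 turned to 0.79, 0.37 and 0.41. CKS2 was the only member to reach an unadjusted p under 0.05 by edgeR when libraries were left out. Without T1 it had 0.0459 in the first comparison, where its change was 1.27 and 400 of 19373 genes were under 0.05. Without T1 and T2 it had 0.00629 in the present one, where its change was 0.80 and 992 of 19135 genes were under 0.05. The adjusted p-values were 0.960 and 0.915. In edgeR's test of any difference without T1 and T2 it had 0.0158, with 556 of 19135 genes under 0.05. With no filter on low counts CKS2 and MAD2L1 had 0.0225 and 0.0471 here by edgeR, with 1164 of 38388 genes under 0.05. Both were then lower in the libraries labelled RING mutant, so the sign of CKS2 at those p-values depended on which libraries were fitted. Groups of 0 members did not overlap, against 1.2% of all genes wholly higher and 2.58% wholly lower. The median of the members was -0.12 with 11 above 0 without T3, 0.16 with 25 above 0 without T4, and 0.079 with 29 above 0 with offsets for length and GC.

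**Figure D3:**
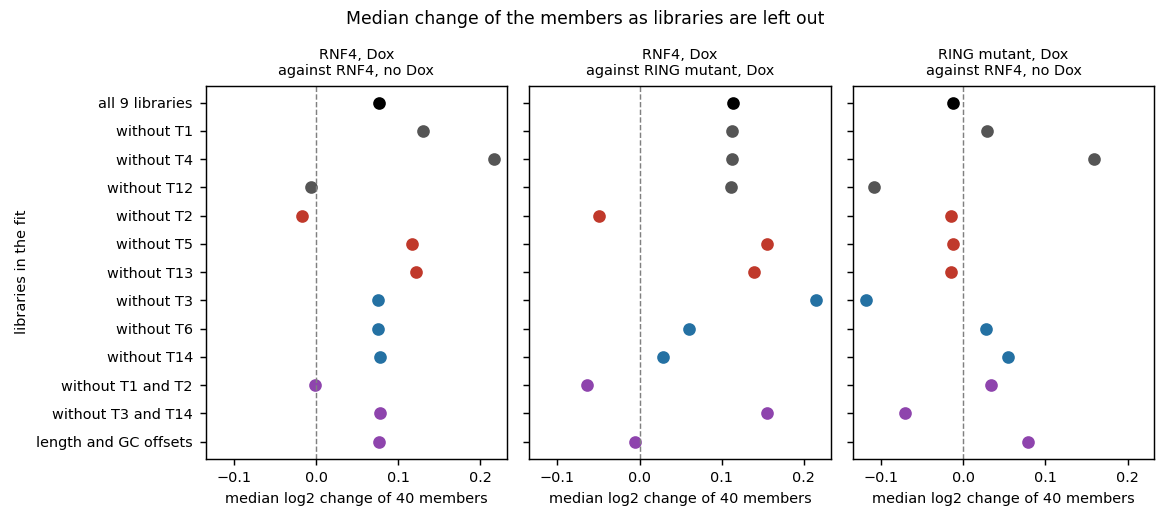
Median log2 change of the 40 members in the 3 comparisons (panels) with all 9 libraries, with each library left out, without T1 and T2, without T3 and T14, and with offsets for transcript length and GC. The first median crosses 0 without T2, without T12 or without T1 and T2, and reaches 0.22 without T4.

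Some libraries of 1 group differed in most members. Among the libraries without Dox, 37 of 40 members were higher in T4 than in T12, with a median log2 difference of 0.44, whereas 49.4% of all genes were higher in T4. In the libraries labelled RING mutant, 38 of 40 were higher in T3 than in T6 (median 0.26, all genes 49.2%) and 37 of 40 were higher in T3 than in T14 (median 0.39, all genes 47.6%). The other 6 pairs within a group had 17 to 25 of 40 members higher in the first library: the medians were 0.31 for T4 against T1, 0.095 for T1 against T12, 0.22 for T2 against T5, -0.015 for T5 against T13, 0.25 for T2 against T13 and 0.12 for T6 against T14. These are differences of single libraries and vary more than differences of group means do. Relative to each gene's own mean over the 9 libraries, 37 of 40 members were high in T3 and 4 of 40 in T12, with member medians of 0.18 and -0.29. Offsets for length and GC left 39, 38 and 38 of 40 members higher in these 3 pairs. Fibroblast markers summed to 2119 CPM in T4 and 2427 in T12, and to 720, 683 and 4114 in T3, T6 and T14. Of the libraries labelled RING mutant, T6 was high in RNF4 (559 CPM), whereas T3 (47.0 CPM) and T14 (63.5 CPM) were both low. The part of stromal cells or of RNF4 in these differences was not tested.

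Column numbers form 3 runs, namely T1 to T3, then T4 to T6, then T12 to T14, which each hold 1 library of a group, and the labels do not say what a run is. RNF4 with Dox against RNF4 without Dox went opposite ways in them. In the first run 30 of 40 members were higher in T2 than in T1 (median 0.32, all genes 50.5%) and in the third 36 of 40 were higher in T13 than in T12 (median 0.25, all genes 49.7%). In the second, 5 of 40 were higher in T5 than in T4 (median -0.19, all genes 50.0%). Offsets for length and GC gave 32, 36 and 4 of 40. A fit with the run as a term gave a median of 0.081 with 34 members above 0 and 0 calls.

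**Figure D4:**
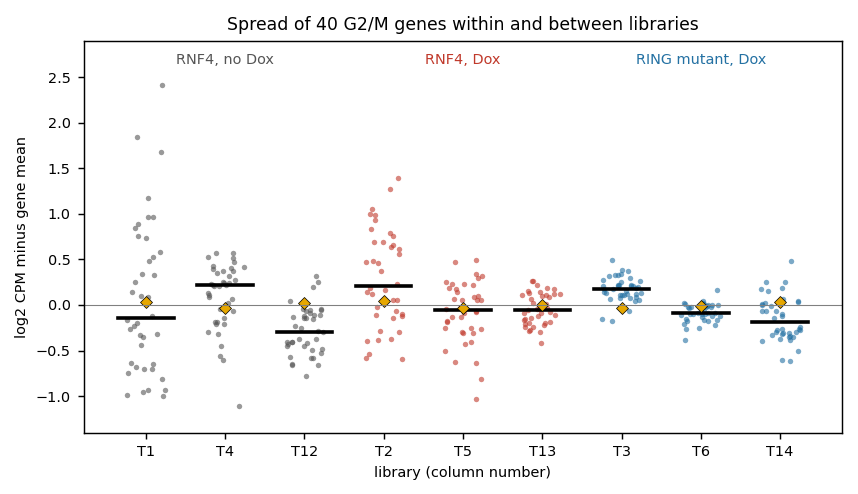
Log2 CPM of each of the 40 members (points) minus its own mean over the 9 libraries, by library and coloured by group; black bars are member medians and yellow diamonds the medians of all 18618 genes. Member medians are highest in T4, T2 and T3 and lowest in T12, T14 and T1, while the median of all genes stays near 0. Members are spread widest in T1 and T2.

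T1 and T2 stood on the same side of the other libraries in many members, as in many genes overall. In 17 of 40 members both libraries lay above the other 7 (23.0% of all genes did so), and in 9 of 40 both lay below (19.2% of all genes), a comparison chosen after T1 and T2 were seen to stand apart. The 17 were BIRC5, BUB3, CCNA2, CCNB1, CCNB2, CDK1, CENPA, CKS1B, CKS2, ECT2, HMMR, MAD2L1, NEK2, NUF2, PTTG1, TTK and UBE2C, of which 6 belong to the 8 genes of CDK1 and cyclins. The 9 were CDC25B, CENPF, FOXM1, KIF20A, KIF2C, KIF4A, MKI67, PRC1 and TPX2. The remaining 14, among them AURKA, AURKB, BUB1, CDC20, PLK1, TOP2A and KIF11, were in neither set. Median coding length was 984 bases in the 17, 2244 in the 9 and 2709 in the 14, against 888 and 2064 in all genes that did as the 17 and the 9. Roles were mixed, with CDC25B in the 9 although 6 genes of its role were in the 17. CKS2 and MKI67, whose promoters are printed above, were on opposite sides. Promoter elements were not compared between these sets.

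Across the 40 members the deviation in T1 fell with log2 coding length (Pearson r = -0.77, Spearman rho = -0.73) and so did that in T2 (r = -0.63, rho = -0.60), a description over genes that share 1 library each and are not independent. Over 13865 genes with a coding length the same r was -0.48 and -0.35. In T4 the members' r was 0.73, in part because deviations are taken from a mean that includes T1 and T2. With the mean taken over the other 7 libraries, r was 0.63 in T4, 0.69 in T5, 0.37 in T12 and 0.16 in T14. It was -0.47 in T3, -0.82 in T6 and -0.58 in T13. Length thus also ordered the members in some libraries that were not set apart, to unlike degrees. The same r over all genes was not computed for this mean. Offsets for transcript length and GC content left 7 members with T1 and T2 both above the others (BIRC5, BUB3, CCNB1, CDK1, CKS1B, CKS2 and MAD2L1; 13.6% of all genes) and 14 with both below (16.1% of all genes). These offsets did not use coding length, so an order by coding length could remain after them. Transcript and coding length were far apart in BUB3 (7828 and 984 bases), MAD2L1 (5468 and 615) and BIRC5 (2630 and 426). The part of coding length in the 7 was not tested. RNA integrity was not in the sources used here.

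Correlations between members were higher without T1 and T2. Over the 9 libraries the median Pearson r between 2 members was 0.36 and 61.2% of 780 pairs were above 0, against 0.004 and 50.2% over all pairs of the 18618 genes. Over the 7 libraries without T1 and T2 it was 0.59 with 83.8% above 0 (all genes -0.002 and 49.8%), and over 9 libraries with offsets for length and GC it was 0.50 with 68.7% (all genes 0.008 and 50.6%). These are descriptions over few libraries that share depth and run, and coding length ordered the members in some of them. The median coefficient of variation of a member was 24.8% over 9 libraries and 15.5% over 7, against 28.3% and 19.1% for all genes. The members had at least 134 counts in every library, and all genes were not matched to them on count level. Since this coefficient depends on count level, the lower values are not read as a trait of the members.

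Other genes of mitosis were read in 6 lists of 109 genes, all of them tested: subunits and regulators of the anaphase-promoting complex, condensin and cohesion genes, further kinetochore genes, spindle and midzone genes, subunits of DREAM and the MYB-MuvB complex, and brakes on CDKs. The list called CDK brakes also holds CCNB1IP1 and the phosphatase CDC25A, which activates CDKs. None of the 109 passed the test in any comparison in either direction, by edgeR's quasi-likelihood test, and 0 had an unadjusted p under 0.05. With RNF4 and Dox against no Dox, 61 of 109 were above 0, with list medians from -0.046 for CDK brakes to 0.071 for condensin and cohesion genes. SMC4, a condensin ATPase, was at 0.20 ± 0.22 there and SKA3, a kinetochore coupling protein, at 0.36 ± 0.31. CDKN1B, the inhibitor p27, had 57.6, 56.0 and 47.6 CPM with RNF4 and Dox against 45.7, 43.3 and 40.7 in those labelled RING mutant, groups that did not overlap, as in 1 of the 109 genes and 2.71% of all genes in that direction, with a difference of 0.31 ± 0.16 and an adjusted p of 0.99988. WEE1, the kinase that holds CDK1 inactive, had 32.6, 30.9 and 35.3 CPM in those labelled RING mutant against 43.4, 40.3 and 38.0 without Dox, also without overlap, as in 2 of 109 and 2.58% of all genes (-0.30 ± 0.16, adjusted p = 0.99996). ANAPC16, a small subunit of the complex, showed the pattern of CKS2 on a smaller scale, with T1 (279 CPM) and T2 (168 CPM) above the remaining libraries (60.0 to 85.1 CPM). By their medians in T1 and T2, kinetochore genes (0.29 and 0.41) and genes of the anaphase-promoting complex (0.28 and 0.26) stood high. CDK brakes (0.14 and 0.20) and DREAM and MYB-MuvB genes (0.12 and 0.10) did so less. Spindle and midzone genes stood low (-0.46 and -0.13), and condensin and cohesion genes low in T1 only (-0.33 and 0.0048).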

How the data were processed

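The authors deposited read counts per Ensembl gene for 9 libraries in tables that also hold their log2 fold changes and adjusted p-values, all read as deposited. Per the submitters' processing notes, which give no order or role, the tools were TopHat2 2.0.13, HTSeq 0.6.0 and DESeq2 1.10.1 with GRCh38; the annotation release is not given in the sources used here. Per the labels' protocols, 800 ng of RNA went into a directional poly(A) kit, read for 50 bases from 1 end.

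Counts were tested with edgeR 4.0.16 in R 4.3.3 (filterByExpr, TMM, quasi-likelihood, 1 mean per group, all 9 libraries, Benjamini-Hochberg over 18618 genes, threshold 0.05). Deviations use log2 CPM with a prior count of 2. The fit was tested on simulated data. Columns could be matched to groups, not to single samples. Symbols were found for 51996 of 57820 identifiers. Lengths are from GENCODE release 29. Alternatives were another scaling, other filters, DESeq2 1.42.0, limma 3.58.1, each library left out and, chosen after seeing the data, T1 and T2 or T3 and T14 left out and offsets for length and GC.

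The text names, by role, the member of smallest p and of largest change in the first comparison, the 5 of smallest p in each other comparison, 3 paralogue pairs, and up to 2 genes of each other list by smallest p; the remaining members are given by range. Members and lists were chosen with earlier results of these data known.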

Additional observations from a re-analysis of the deposited data

How the results depend on the processing

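Under each of the 20 alternatives, 0 members were called in all 3 comparisons and, where it could be fitted, in the test of any difference. With no filter on low counts, 3, 38 and 109 of all 38388 genes were called in the 3 comparisons. The member medians moved by less than 0.21, the SD of the member median between libraries of a group. That SD is for single libraries and is wide beside medians of 0.077, 0.11 and -0.013. Each median changed sign under some alternative: the first 2 went to -0.018 and -0.049 without T2, the last to 0.16 without T4. Of 24 named log2 changes, none of them past the threshold, 7 kept their direction throughout and 45 of 480 pairs of a change and an alternative turned it; the cause was not tested. The first, the second and the third comparison below are RNF4 with Dox against RNF4 without Dox, RNF4 with Dox against RING mutant, and RING mutant against RNF4 without Dox. Without T1 and T2 the turned values were BUB1B -0.042, CCNB1 0.10, CKS1B 0.11, CKS2 0.32 and TOP2A -0.042 in the first, HMMR -0.056 and TTK -0.14 in the second, and CKS1B 0.41, CKS2 0.80 and MAD2L1 0.38 in the third. With limma's quality weights they were CCNB1 0.20, CKS1B 0.087, CKS2 0.22 and MAD2L1 0.032 in the first and CKS1B 0.40, CKS2 0.54 and MAD2L1 0.25 in the third. Without T3 and T14 they were CCNB1 0.0027 in the first and KIF23 0.051 and -0.034 in the other two. CCNB1 also turned to 0.011 with no filter on low counts, 0.039 with a term for the run and 0.035 with offsets for length and GC, and CCNB2 to -0.0044 with a minimum of 1 CPM in 3 libraries.

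With each library left out in turn, the first comparison gave ranges of -0.074 to 0.44 for BUB1B, -0.47 to 0.58 for CCNB1, -0.39 to 0.47 for CCNB2, -0.16 to 0.39 for CENPF, -1.05 to 0.74 for CKS1B, -1.71 to 1.27 for CKS2, -0.26 to 0.64 for HMMR, -1.32 to 1.02 for MAD2L1 and -0.19 to 0.46 for NEK2. The second gave -0.041 to 0.71 for HMMR and -0.12 to 0.64 for TTK, and the third -1.13 to 0.41 for CKS1B, -1.72 to 0.79 for CKS2 and -1.34 to 0.37 for MAD2L1. Where a group was left with 2 libraries, the spread came from all groups. No paired analysis was possible because the count columns carry numbers that match no sample title. The term for the run of column numbers is not a pairing that the labels give. For most of these genes the limit was the spread between 3 libraries a group more than depth.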
